A study of Mus musculus with 6 samples.

Results

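The 9 genes Mbp, Mobp, Mag, Mog, Cnp, Cldn11, Mal, Opalin and Ermn, which encode structural proteins of the myelin sheath, were followed through the stages of the oligodendrocyte lineage in mouse forebrain. They were chosen by symbol, 9 of the 32285 genes in the matrix. Nuclei of flash-frozen forebrain had been profiled by snRNA-seq, in which each transcript is counted by its unique molecular identifier (UMI), from 3 mice labelled WT and 3 labelled Npc1-/-, all killed at postnatal day 16. The Npc1-/- mice carry the Npc1 nih allele, lack the lysosomal cholesterol transporter NPC1 in every cell and were bred as F1 hybrids of BALB/cJ and C57BL6/J parents with WT littermates, and no animal was treated. The barcodes name 6 libraries but not the mouse each came from, so the genotypes cannot be told apart, all nuclei are described together, and values are given for libraries 1 to 6.

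Oligodendrocytes arise from oligodendrocyte progenitor cells (OPCs), which leave the cell cycle, pass through a committed precursor stage, become newly formed oligodendrocytes and then mature cells that wrap axons. The wrapped membrane is compacted on its cytoplasmic face by myelin basic protein, encoded by Mbp. MOBP is another small basic protein of compact myelin, MAG faces the axon, MOG lies on the outermost surface of the sheath, and CNP keeps cytoplasm-filled channels open within it. CLDN11 forms the tight junctions between wraps, MAL is a membrane protein of lipid-rich domains and vesicle traffic, OPALIN is a transmembrane sialoglycoprotein of central myelin, and ERMN is a cytoskeletal protein of late oligodendrocytes.

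The genes divided by how much of the mature level newly formed nuclei already held. The bases just before the start of 2 genes with most of it (Mag, Cnp) and 2 with little of it (Mog, Opalin) are shown for that reason. For Mag the division held with marker gates but not with clusters of nuclei, as described with the values. They come from the RefSeq promoter table for GRCm38.p6, in which 8 of the 9 genes had an entry, 3 starts for Mag and 1 for each of the others. Each run is 150 bases long, reads 5′ to 3′ on the strand of the gene and ends at the base before the start. Capitals mark ACAAAG, a core bound by SOX proteins such as SOX10, and CTGGCAC, a form of the motif of the myelin regulator MYRF, on either strand.
Mag, chr7:30914864-30915013, minus strand: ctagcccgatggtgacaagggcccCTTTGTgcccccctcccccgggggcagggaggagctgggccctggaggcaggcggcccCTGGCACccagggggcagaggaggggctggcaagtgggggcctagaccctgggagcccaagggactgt
Cnp, chr11:100574789-100574938, plus strand: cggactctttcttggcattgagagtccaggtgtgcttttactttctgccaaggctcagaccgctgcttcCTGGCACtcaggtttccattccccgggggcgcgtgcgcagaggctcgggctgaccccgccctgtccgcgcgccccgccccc
Mog, chr17:37023399-37023548, minus strand: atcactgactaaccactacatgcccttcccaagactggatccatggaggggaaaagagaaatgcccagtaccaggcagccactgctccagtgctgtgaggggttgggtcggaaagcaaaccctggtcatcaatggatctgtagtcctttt
Opalin, chr19:41077114-41077263, minus strand: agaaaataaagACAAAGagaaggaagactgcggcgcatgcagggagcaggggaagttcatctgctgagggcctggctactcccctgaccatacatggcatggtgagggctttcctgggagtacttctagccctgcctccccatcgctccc
Over the 250 bases before the start, ACAAAG was present for 4 of 8 genes (Cnp, Mag, Mobp and Opalin) and in 16.5% of the 32851 promoters in the table. CTGGCAC was present for 2 of 8 genes, Cnp and Mag, and in 4.19% of all promoters. The other SOX core AACAAT, the E-box CAGCTG and the TATA box TATAAA were found for 0 of 8 genes, against 9.42%, 13% and 12.4% of all promoters. The shares of all promoters count each start. Counted that way, ACAAAG was present for 5 of 10 starts of these genes and CTGGCAC for 3 of 10. Of the 3 starts of Mag, 2 have windows that share bases and hold both motifs, and the other start holds neither. A run of letters is not a measured binding site.

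All 9 are protein-coding genes, placed here by the GENCODE vM21 annotation of GRCm38. Mobp (ENSMUSG00000032517) lies at chr9:120149707-120181484 on the plus strand, and Mag (ENSMUSG00000036634) at chr7:30899176-30914873 on the minus strand. Mog (ENSMUSG00000076439) lies at chr17:37010743-37023398 on the minus strand, Cnp (ENSMUSG00000006782) at chr11:100574904-100591729 on the plus strand, and Cldn11 (ENSMUSG00000037625) at chr3:31149920-31164324 on the plus strand. Mal (ENSMUSG00000027375) spans chr2:127633226-127656695 and Ermn (ENSMUSG00000026830) chr2:58045113-58052864, both on the minus strand, and Opalin (ENSMUSG00000050121) spans chr19:41061710-41077113 on the minus strand. Mobp overlaps a non-coding transcript on its own strand, Gm38642, so some of its counts may be shared with that gene. Mog, Cnp and Ermn each overlap 1 gene on the opposite strand, in the case of Cnp the coding gene Dnajc7 and in that of Ermn the coding gene Galnt5.

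Mbp (ENSMUSG00000041607), for which no bases are shown, lies at chr18:82475146-82585637 on the plus strand and overlaps a pseudogene on the opposite strand. The matrix held 497750379 UMIs in 75878 barcodes, between 51343653 and 107583300 UMIs in a library, and 75867 nuclei were kept after 11 of high mitochondrial share were left out. Nuclei were assigned to 4 stages and 11 classes outside the lineage by scores over marker genes that included none of the 9 genes. This gave 3055 OPCs, 239 committed precursor-like, 1387 newly formed oligodendrocyte-like and 1408 mature oligodendrocyte-like nuclei, with a median of 3636, 4822, 4639 and 5571.5 UMIs each. The OPC, newly formed and mature gates held 9 of 9, 8 of 8 and 13 of 13 of their own markers at 1 UMI or more, and their own list was the highest of the lineage lists in each. The gates were drawn on these markers, so these values do not test the stage names. OPCs also held 8 of 8 newly formed and 13 of 13 mature markers. The committed gate, with 25 to 58 nuclei in a library, held 5 of 5 markers at 854 CPM (UMIs per 1000000 UMIs of the class), below the 2526 CPM of the OPC list, the 2027 CPM of the newly formed list and the 1348 CPM of the mature list in the same nuclei. The gates held a part of the transcripts, 16.3% of all Mbp UMIs, 53.5% of all Mog UMIs and 8.17% of all Cnp UMIs being in the mature gate. The 2 later gates were of unequal size between libraries. Mature nuclei were 2.74%, 2.75%, 0.669%, 0.804%, 2.99% and 0.816% of the nuclei in libraries 1 to 6. Of 75245 distinct barcode sequences, 631 occurred in more than 1 library.

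Levels are given as CPM, the UMIs of a gene scaled by all UMIs of the nuclei of a class. Ratios are on the log2 scale and, unless given for single libraries, are over UMIs summed over the 6 libraries. Their exact 95% intervals cover counting error only, not the spread between mice. A gene was called higher where it was at least 2-fold higher in 6 of 6 libraries, with the lower count set to at least 3. Nuclei of a class and libraries of unknown genotype are not replicates of a condition, so no p-value is given. The counts of members called are set beside the share of all genes with at least 100 UMIs in the 2 classes that met the same rule.

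Together the 9 genes took 977 CPM in OPCs, 1702 CPM in committed precursor-like nuclei, 6727 CPM in newly formed and 12413 CPM in mature oligodendrocyte-like nuclei. A mature nucleus held 84.7 UMIs of the 9 genes on average and a newly formed nucleus 38.5. From OPC to mature nuclei 8 of 9 genes were called higher, against 4.24% of all genes tested, and 0 of 9 were called lower, against 3.4%. The median log2 ratio of the 9 was 4.42, and over all genes tested -0.22. Mog was 52.3-fold higher in mature nuclei (log2 5.71, interval 5.54 to 5.89), Opalin 30.8-fold, Mobp 24.6-fold, Mag 24.1-fold and Ermn 21.4-fold. Mbp was 9.66-fold and Mal 9.57-fold higher. These folds are over summed libraries, and single libraries ran from a log2 ratio of 2.48 (library 1) to 6.26 (library 6) for Mbp and from 2.67 to 4.39 for Mal. With the excitatory neuron-like level subtracted from both classes the log2 ratios were larger, at 4.07 for Mbp, 3.89 for Mal, 4.38 for Cldn11, 5.18 for Ermn, 5.32 for Mobp, 5.33 for Mag and 5.62 for Opalin. That level was subtracted in CPM. Per nucleus Mbp was at 2.86 UMIs in OPCs and 2.75 in excitatory neuron-like nuclei, so these ratios depend on the unit. Subtraction per nucleus was not tested. Cnp was the gene not called higher. It was 3.22-fold higher (log2 1.68, interval 1.57 to 1.80) and just missed the limit in library 5, with a log2 ratio of 0.99, so that it was called without library 5. It was also called with mixed nuclei kept, with Leiden clusters, with nuclei of at least 2000 UMIs, with TMM scaling, by the median over libraries and after subtraction of the excitatory neuron-like level.

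**Figure D1:**
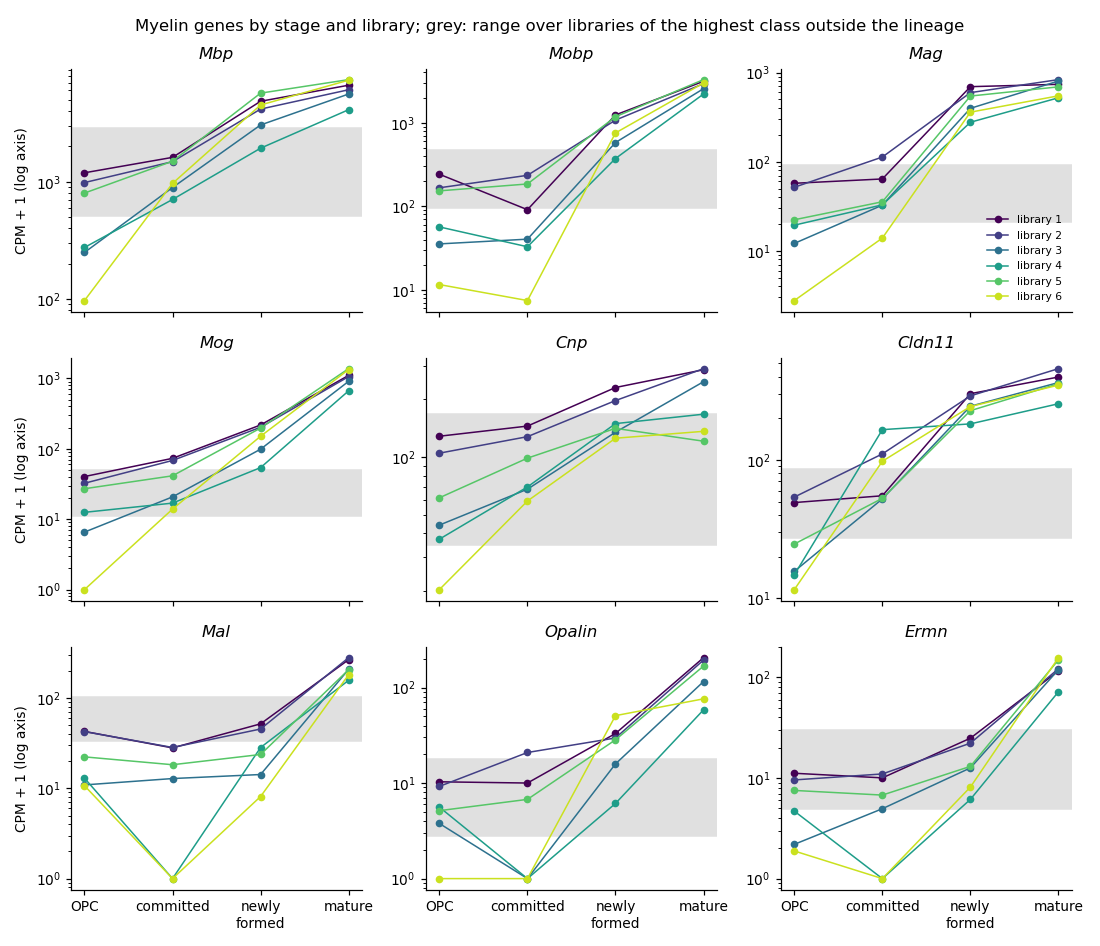
CPM + 1 of each gene (log axis) at the 4 stages, 1 line per library. The grey band runs from the lowest to the highest value, over libraries, of the highest class outside the lineage. All lines lie above the highest value of their own library outside the lineage at the mature stage, and the OPC points lie inside or below the band for Mbp.

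Every class outside the lineage also held UMIs of these genes, and these levels are the background against which the early stages are given. Their source, whether free RNA, barcodes that hold more than 1 nucleus or the nuclei themselves, was not tested. In excitatory neuron-like nuclei the 9 genes summed to 396 CPM, in microglia-like nuclei to 815 CPM and in astrocyte-like nuclei to 1814 CPM. The level followed the library. In excitatory neuron-like nuclei the sum was 659, 735, 212, 191, 361 and 96.7 CPM in libraries 1 to 6, lowest in library 6 and highest in library 2.

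In OPCs no gene exceeded all classes outside the lineage in more than 2 of 6 libraries. Mbp was at 1191, 983, 249, 274, 800 and 96.0 CPM in OPCs of libraries 1 to 6, and at 2574, 1802, 533, 433, 1890 and 509 CPM in astrocyte-like nuclei of the same libraries. OPCs were below astrocyte-like nuclei in 6 of 6 libraries (log2 -1.06, interval -1.10 to -1.03). Against microglia-like nuclei the ratios of OPCs for Mbp ran from -0.61 to 0.50, above 0 in 3 of 6 libraries. Over the 9 genes, OPCs exceeded every class outside the lineage in 0 of 6 libraries for Mbp, Mobp, Mag, Cnp, Cldn11, Mal and Ermn, and in 2 of 6 for Mog and Opalin. Compared with excitatory neuron-like nuclei alone, 2 of 9 genes, Cnp (log2 1.53) and Mal (log2 1.51), were called higher in OPCs, against 7.17% of all genes tested, and 0 of 9 lower, against 2.59%. That call was lost under the stricter gate, with mixed nuclei kept and with TMM scaling (0 genes each), and the count was 8 by the median over libraries. Per nucleus the 2 classes were closer, with 0.313 UMIs of Cnp in OPCs and 0.244 in excitatory neuron-like nuclei. For Mal these were 0.109 and 0.0859 UMIs. OPCs had a median of 3636 UMIs and excitatory neuron-like nuclei 8583, and the part of depth in the CPM ratios was not tested. Mog was at 39.3, 31.4, 5.55, 11.5 and 26.0 CPM in OPCs of libraries 1 to 5. In library 6 it had 0 UMIs in 1135211, which allows up to 2.64 CPM by a limit of 3 counts.

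From OPC to committed precursor-like nuclei, 0 of 9 genes were called higher, against 0.815% of all genes tested, and 0 of 9 lower, against 0.429%. The median log2 ratio of the 9 was 0.52, against -0.04 over all genes. Mbp was at 1613, 1482, 891, 705, 1495 and 967 CPM in committed nuclei, above OPCs in 6 of 6 libraries (log2 0.93, interval 0.86 to 1.00) but above every class outside the lineage in 3 of 6. Cldn11, the tight junction gene, had the highest ratio of the 9 at this step with libraries summed (log2 1.49, interval 1.19 to 1.78). The interval overlapped that of Mog (log2 1.09, 0.685 to 1.48), and other genes were higher in some single libraries. Cldn11 was at 54.1, 109, 51.3, 164, 51.8 and 96.7 CPM in committed nuclei and at 48.2, 52.9, 14.7, 13.8, 23.7 and 10.6 CPM in OPCs. The 2 sets were close together in library 1 (log2 0.17), and without library 1 Cldn11 was called higher. Mag, Mog and Cldn11 were above astrocyte-like nuclei in 6 of 6 libraries at this stage, with log2 ratios of 0.91, 1.48 and 1.498. They were above every class outside the lineage in 3, 5 and 5 of 6 libraries, respectively. Mal, Opalin and Ermn rested on 26, 12 and 9 UMIs over the 239 nuclei, and their ratios had intervals that included 0.

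From committed to newly formed nuclei, 4 of 9 genes were called higher, against 0.928% of all genes tested, and 0 of 9 lower, against 0.0834%. Mag (log2 3.28, interval 2.97 to 3.60) and Mobp (log2 3.18, 2.96 to 3.40) had the larger ratios, with intervals that overlapped, followed by Mog (log2 2.02, 1.67 to 2.40) and Mbp (log2 1.80, 1.74 to 1.87). Mag was at 63.1, 112, 31.6, 31.8, 34.5 and 12.9 CPM in committed nuclei of libraries 1 to 6. In newly formed nuclei it was at 696, 596, 397, 277, 546 and 359 CPM, and the 2 stages did not overlap. Cldn11 (log2 1.63) was 2-fold higher in 5 of 6 libraries, and in library 4, where the committed value was highest, its ratio was 0.14. It was called higher without library 4. Cnp, at log2 0.84, reached 2-fold in 2 of 6. Mal, Opalin and Ermn had ratios of 1.10, 1.78 and 1.57 and reached 2-fold, with the lower count set to at least 3, in 0, 2 and 2 libraries. With this limit none of these 3 genes could be called, whatever the committed count. In library 4 (188656 UMIs in the committed gate) 3 counts lay above the newly formed levels of Opalin and Ermn. In library 6 (155084 UMIs) 3 counts lay above that of Mal.

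From newly formed to mature nuclei, 4 of 9 genes were called higher, against 1.54% of all genes tested, and 0 of 9 lower, against 1.92%. These were Ermn (log2 2.79, interval 2.53 to 3.05), Mal (log2 2.703, 2.53 to 2.88), Mog (log2 2.60, 2.52 to 2.68) and Mobp (log2 1.53, 1.49 to 1.56). Opalin, at log2 2.65 (2.44 to 2.86), was 2-fold higher in 5 of 6 libraries. In library 6 its newly formed level of 49.8 CPM rested on 14 UMIs and its ratio was 0.59. It was called higher without library 6. Mog was at 216, 201, 97.5, 52.9, 196 and 149 CPM in newly formed nuclei and at 1099, 1056, 905, 663, 1371 and 1330 CPM in mature nuclei. The lowest mature library was above the highest newly formed library. Ermn was at 23.8, 21.1, 11.6, 5.12, 12 and 7.11 CPM in newly formed nuclei and at 114, 120.4, 118, 70.7, 148 and 155 CPM in mature nuclei. The 2 stages did not overlap. The newly formed values of Ermn rested on 141 UMIs with libraries summed and were above every class outside the lineage in 3 of 6 libraries.

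Mobp was at 1240, 1074, 578, 372, 1179 and 754 CPM in newly formed nuclei of libraries 1 to 6, and at 3132, 2932, 2556, 2206, 3282 and 2986 CPM in mature nuclei. Every mature value was above every newly formed value. Mal was at 50.8, 44.4, 13.2, 27.3, 22.7 and 7.11 CPM in newly formed nuclei, below endothelial-like nuclei of the same library in 6 of 6, and at 265, 279, 207, 156, 205 and 180.4 CPM in mature nuclei. For Opalin the newly formed values were 32.0, 28.6, 14.9, 5.12, 27.4 and 49.8 CPM and the mature values 204, 193, 115, 57.4, 167 and 75.2 CPM. The lowest mature library was close to the highest newly formed library for this gene.

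The other 4 genes differed less between these stages when drawn by marker gates, but with Leiden clusters 3 of them, Mbp (log2 1.63), Cldn11 (1.67) and Mag (2.84), were called higher in mature nuclei. In the gates Mbp had a ratio of 0.54 (interval 0.52 to 0.56), Cldn11 of 0.55, Mag of 0.39 and Cnp of 0.34, and none was called. Mbp was at 4854, 4163, 3048, 1931, 5694 and 4510 CPM in newly formed nuclei and at 6652, 6085, 5596, 4112, 7426 and 7346 CPM in mature nuclei, so that the 2 stages overlapped across libraries while the mature value was the higher in each of them. Cnp was at 230, 196, 134, 149, 140 and 124 CPM and then at 285, 288, 246, 166, 120.1 and 135 CPM. It was lower in mature nuclei in library 5.

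Expressed as a percent of the mature level in the same library, newly formed nuclei held a median of 85.0% for Cnp, 68.6% for Cldn11, 68.4% for Mag and 64.9% for Mbp. Mobp stood between at 30.6%. Opalin held 15.3%, Mal 13.5%, Mog 12.7% and Ermn 8.98%. In 5 of 6 libraries the lowest of Cnp, Cldn11, Mag and Mbp (47.0% to 73.0%) was above the highest of Opalin, Mal, Mog and Ermn (13% to 20.8%). In library 6 Opalin reached 66.3%. Newly formed nuclei were above every class outside the lineage in 0 of 6 libraries for Mal and in 3 of 6 for Ermn. This division was seen in the data and is a description. The newly formed gate also held the mature marker list at 2748 CPM, against 5295 CPM in the mature gate. Whether partly mature nuclei in the newly formed gate shaped the division was not tested.

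**Figure D2:**
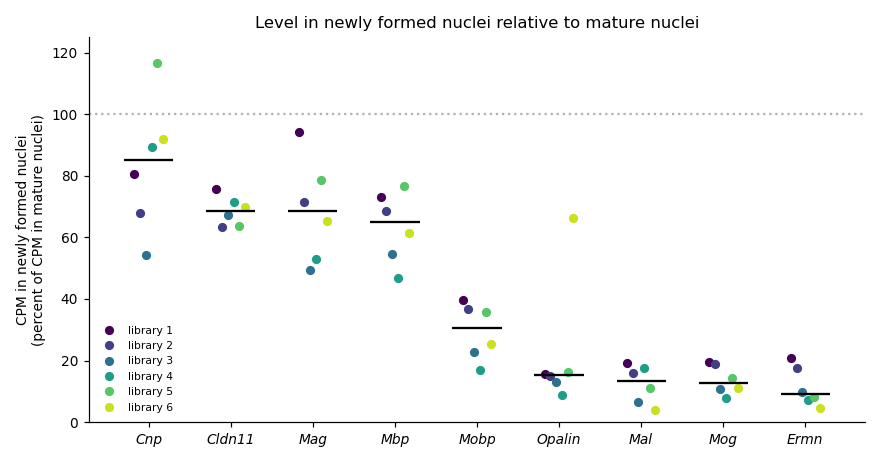
CPM in newly formed nuclei as a percent of CPM in mature nuclei of the same library (vertical axis), 1 point per library and a bar at the median. Cnp, Cldn11, Mag and Mbp have medians from 64.9% to 85.0%, Mobp 30.6%, and Opalin, Mal, Mog and Ermn medians from 8.98% to 15.3%.

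The size of this step depended on how the stages were drawn. When Leiden clusters made without the 9 genes replaced the marker gates, the newly formed cluster scored 1.27 for its own list and 1.14 for the committed list, and no cluster was named committed. The mature cluster scored 1.77 for its own list and 0.955 for the newly formed list. In those clusters 8 of 9 genes were called higher in the mature stage, all but Cnp. The ratios were 0.97 for Cnp, 1.63 for Mbp and 1.67 for Cldn11, then 2.82 for Mal, 2.84 for Mag, 3.88 for Ermn, 4.22 for Mog, 4.32 for Mobp and 4.74 for Opalin. Cnp had the smallest ratio by both ways of drawing the stages. Mag was among the 4 smallest in the gates but lay beside Mal in the clusters, and Mobp moved from the middle to the second place. The cause was not tested.

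Shares of nuclei with a UMI were compared after each nucleus was thinned to 2000 UMIs, which left out 258 OPCs, 6 committed, 64 newly formed and 35 mature nuclei as too shallow. Mbp was detected in 99.3% of 1373 mature nuclei and 94.9% of 1323 newly formed nuclei, but also in 66.2% of astrocyte-like and 35.6% of excitatory neuron-like nuclei, so its presence in a nucleus did not mark the lineage. In OPCs it was detected in 51.3%, below the share in astrocyte-like nuclei. The unthinned shares were 99.8%, 97.3%, 78.7%, 72.9% and 68.7% for the same classes in the same order.

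Mog was detected in 85.5% of mature nuclei (exact binomial interval 83.5% to 87.3%), in 22.2% of newly formed nuclei, in 3.90% of OPCs and in 3.25% of astrocyte-like nuclei. Mobp was detected in 96.6% of mature and 45.6% of newly formed nuclei, and in 27.9% of astrocyte-like nuclei. Mag, in 73.6% and 50.04%, and Cldn11, in 54.8% and 38.0%, differed less between the 2 stages. Mal went from 6.35% to 36.9%, Opalin from 4.16% to 26.7% and Ermn from 2.87% to 23.2%. The newly formed share of Mal was close to its 5.71% in astrocyte-like nuclei. Unthinned, Mog was detected in 95.5% of mature and 35.9% of newly formed nuclei.

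**Figure D3:**
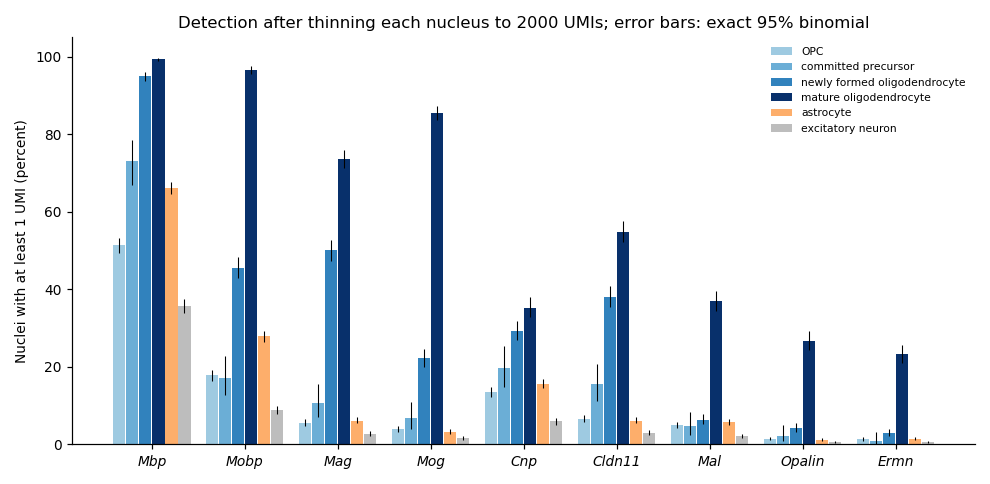
Percent of nuclei with at least 1 UMI of each gene after thinning to 2000 UMIs, for the 4 stages and, from outside the lineage, astrocyte-like and excitatory neuron-like nuclei, with exact 95% binomial intervals. Mog is detected in 85.5% of mature nuclei and 3.25% of astrocyte-like nuclei, while Mbp is detected in 99.3% and 66.2%.

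The median mature nucleus showed 5 of the 9 genes at this depth and the median newly formed nucleus 3. The median OPC showed 1 and the median excitatory neuron-like nucleus 0. The median was also 1 in astrocyte-like, microglia-like, endothelial-like, pericyte-like, fibroblast-like, ependymal-like and choroid plexus-like nuclei. None of the 9 genes was seen in 35.8% of OPCs, 24.0% of astrocyte-like and 36.2% of microglia-like nuclei. At least 5 genes were seen in 73.2% of mature nuclei, from 56.1% in library 4 to 78.1% in library 2, and in 17.4% of newly formed nuclei, from 5.50% in library 4 to 23.8% in library 1. The 2 ranges did not overlap. The summed UMIs of the 9 genes had a median of 29 in mature and 11 in newly formed nuclei. Pearson correlations were taken between log-transformed thinned counts over nuclei that share libraries. Within 1373 mature nuclei the highest were 0.54 for Mbp and Mobp, 0.38 for Mbp and Mog and 0.38 for Mobp and Mog. Other pairs were lower, with Cnp at 0.01 with Mbp and at -0.03 with Mog. In newly formed nuclei the highest values were 0.61 for Mobp and Mag, 0.53 for Mbp and Mag and 0.50 for Mbp and Mobp over 1323 nuclei.

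The make-up of the myelin transcripts also differed by stage. Mbp gave 51.7% of the UMIs of the 9 genes in mature nuclei, 65.5% in newly formed nuclei, 74.2% in committed nuclei and 67.9% in OPCs. Outside the lineage it gave between 64.2% in neuroblast-like and 76.4% in astrocyte-like nuclei with libraries summed. In single libraries mature nuclei ran from 49.7% to 56.1% and the classes outside from 55.5% to 81.3%, so these ranges overlapped. Mog gave 8.94% in mature nuclei, from 8.08% to 10.2% over libraries. In the classes outside the lineage it gave between 0.890% and 2.91% with libraries summed, and up to 7.69% in a single library (neuroblast-like nuclei of library 6). Mobp gave 24.1% in mature nuclei, from 22.8% to 26.9% over libraries. Outside the lineage it gave 11% to 13.2% with libraries summed and from 7.14% to 23.3% in single libraries, highest in pericyte-like nuclei of library 6, so the ranges over libraries overlapped. Mag had its highest share, 8.43%, in newly formed nuclei. Cnp gave 1.88% in mature nuclei and between 4.86% and 9.49% outside the lineage with libraries summed. Its ranges over single libraries, 0.872% to 2.36% and 2.17% to 13.4%, also overlapped.

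**Figure D4:**
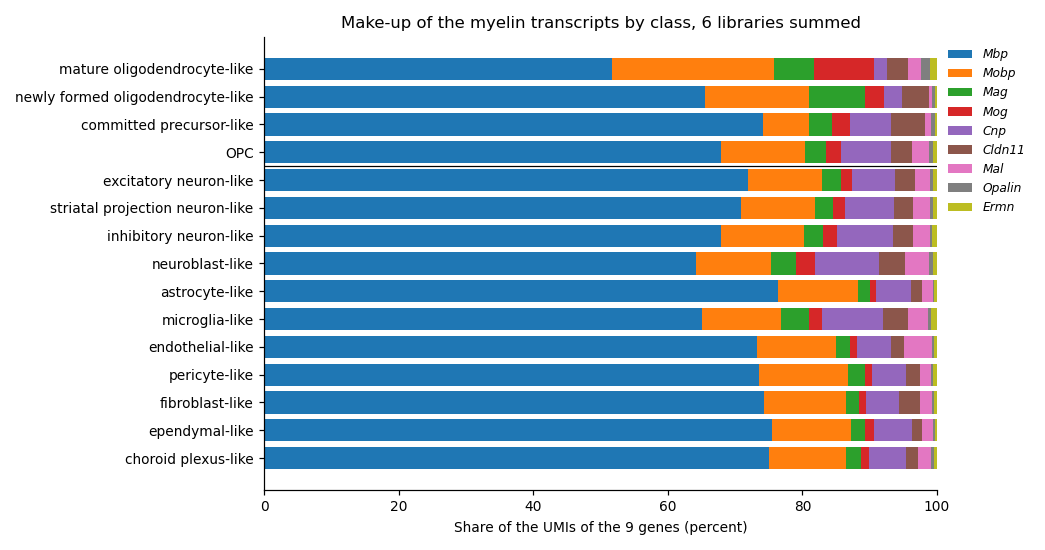
Share of each gene in the UMIs of the 9 genes (horizontal axis, percent) for the 4 stages, above the line, and the 11 classes outside the lineage, with the 6 libraries summed. Mbp is at 51.7% and Mog at 8.94% in mature nuclei, while Mbp lies between 64.2% and 76.4% in the classes outside the lineage. In single libraries, which are not drawn, the ranges of Mbp overlap.

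Mal differed between the classes outside the lineage. It was at 101, 76.5, 32.4, 42.1, 85.9 and 87.0 CPM in endothelial-like nuclei of libraries 1 to 6, above each of the 10 other classes outside the lineage in 6 of 6 libraries. It was 2.23-fold above astrocyte-like nuclei (log2 1.16, interval 0.99 to 1.32), although Mbp was lower in endothelial-like (1139 CPM) than in astrocyte-like nuclei (1386 CPM). Its share of the 9 genes was 4.15% there (interval 3.84% to 4.48%) and 1.60% in astrocyte-like nuclei. In neuroblast-like nuclei the share was 3.61% (2.81% to 4.57%), so the intervals overlapped. Endothelial-like nuclei had the highest share outside the lineage in 5 of 6 libraries. In library 1 the share was 4.37% in neuroblast-like and 3.30% in endothelial-like nuclei. The Mal level in endothelial-like nuclei (64.5 CPM) was above that of newly formed oligodendrocyte-like nuclei (37.1 CPM) and below the 242 CPM of mature nuclei.

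Cldn11 was at 85.0, 81.3, 34.7, 32.1, 37.7 and 23.7 CPM in fibroblast-like nuclei, the highest class outside the lineage in 4 of 6 libraries. It was 1.66-fold above astrocyte-like nuclei (log2 0.73, interval 0.49 to 0.97) and higher in 6 of 6 libraries, but ependymal-like nuclei were higher in libraries 5 and 6, and the ratio to pericyte-like nuclei was 0.51 on the log2 scale (interval 0.12 to 0.92). Its share of the 9 genes, 3.11%, was below the 3.78% in neuroblast-like and the 3.76% in microglia-like nuclei, so Cldn11 did not stand apart by this measure. The fibroblast-like value in library 6 rested on few UMIs, with an interval from 7.70 to 55.3 CPM. Whether these levels come from the nuclei or from free RNA was not tested.

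**Figure D5:**
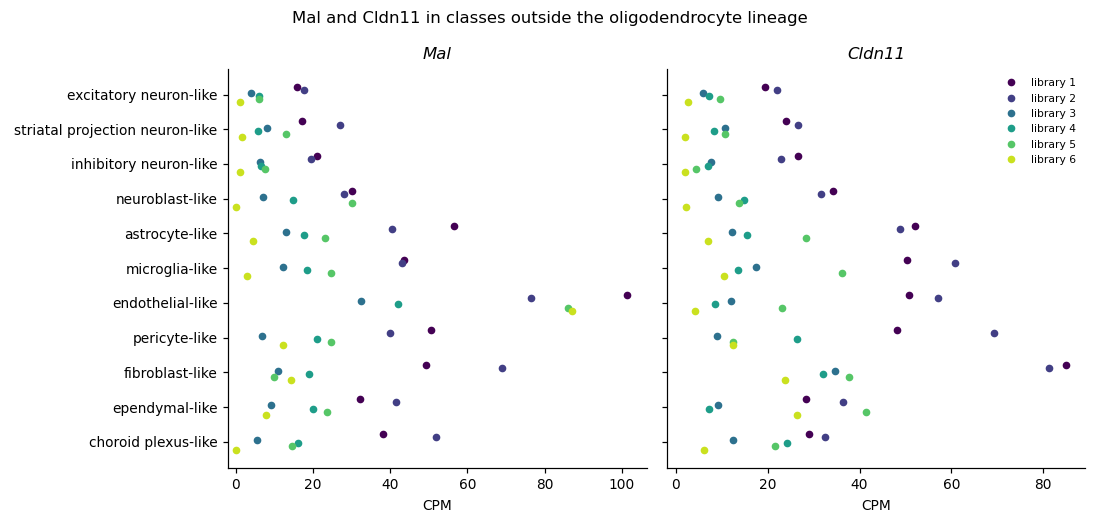
CPM of Mal and Cldn11 in the 11 classes outside the lineage, 1 point per library. Mal is highest in endothelial-like nuclei in each of the 6 libraries (32.4 to 101 CPM), and Cldn11 is highest in fibroblast-like nuclei in 4 of 6.

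Other genes of the myelin programme were taken from lists. Of 20 other genes of myelin membrane and lipid, 13 were called higher in mature nuclei than in OPCs, against 4.24% of all genes tested. Tspan2, a tetraspanin, had a log2 ratio of 4.15. From OPC to committed nuclei 5 of these 20 genes were called higher, against 0.815% of all genes tested, among them Fa2h (log2 1.59), Cd9 (1.44), Nfasc (2.52) and Sirt2 (1.86). Fa2h makes the 2-hydroxy fatty acids of myelin lipids. From committed to newly formed nuclei 6 of 20 were called higher, against 0.928%. From newly formed to mature nuclei 1 of 20 was, Tspan2 (log2 1.26), against 1.54%. Nfasc, an adhesion gene of the axon contact (log2 -1.45), and Sirt2, a deacetylase of myelin (log2 -1.30), fell at that step, against 1.92% of all genes called lower.

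Of 10 transcription factors of myelination, Myrf (log2 3.22) and Nkx6-2 (4.05) were called higher and Nkx2-2 lower (-2.22) in mature nuclei than in OPCs, against 4.24% of all genes called higher and 3.4% lower. Myrf and Tcf7l2 were called higher at the committed step, with log2 ratios of 2.58 and 1.64, against 0.815% of all genes. Tcf7l2 rose further to newly formed nuclei (log2 1.75, against 0.928% of all genes called higher) and fell to mature nuclei (log2 -4.42, against 1.92% called lower). Of 5 brakes on differentiation, Sox5 (log2 -2.57) and Sox6 (-3.84) were called lower in mature nuclei than in OPCs, against 3.4% of all genes. Of 4 carriers or processors of myelin RNA, Qk, whose product binds Mbp mRNA, was called higher (log2 1.42) and the kinase gene Fyn lower (-1.30) over the same span, against 4.24% and 3.4% of all genes. Fyn was first called higher from OPC to committed nuclei (log2 2.24), against 0.815% of all genes.

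The genes whose level over the 90 class and library sums was most like that of the summed 9 genes were sought among 16559 genes, without gate markers, by the Pearson correlation of log2(CPM + 1). Among the 10 genes with the highest values were Gsn (0.85), Secisbp2l (0.82), Tspan2 (0.82), Taldo1 (0.81), Nkx6-2 (0.80), Cldn14 (0.79), Ugt8a (0.79), Otud7b (0.79) and Tspan15 (0.79). Gsn was nearest to Mobp (0.83), Nkx6-2 to Opalin (0.86) and Ermn (0.81), and Gamt, which makes creatine, to Mal (0.78). Secisbp2l, Tspan2, Tubb4a, Tnni1, Taldo1, Ugt8a, Pdlim2 and Sec14l5 were also among the 3 nearest of single members. The points share libraries, so these values are a description.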

How the data were processed

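The sources were 1 matrix of UMI counts per gene and barcode from forebrain nuclei of 3 mice of each genotype (10x Genomics 3′ libraries). Per the file headers the deposited counts are whole numbers without normalization, written by Cell Ranger 6.0.0. The submitters' processing notes name Cell Ranger 2.1.1 and the build mm10, and the paper's methods describe STARsolo on GRCm38 with filters on empty droplets, doublets and mitochondrial reads and a later imputation. Which of these steps the matrix had passed, and whether intronic reads were counted, was not stated. No doublet caller was run here.

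The 9 genes and all lists were chosen with earlier results of these data known. All 9 genes are named, with the 10 genes nearest to their sum, the 3 nearest to each of them and the pathway lists. Some genes that these rules also name are not reported here. No key ties the barcode suffix to a mouse, so genotypes were not compared and no test was run.

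Counts were scaled to 10000 per nucleus, log-transformed and standardized per gene (limit 10). A nucleus entered the class of its highest mean marker score if that was at least 0.8 with at least 3 markers detected, and was left out as mixed (17.3% of nuclei) if an unrelated class reached 0.5 of that score. These limits were set after marker values were seen, and 37691 nuclei entered no class. UMIs were summed per class and library. The class sums of a gene carry exact Poisson, shares exact Clopper-Pearson and ratios exact conditional binomial 95% intervals. The call rule was tested on simulated counts. Alternatives were a stricter gate (1.2, 4 markers, 0.35), mixed nuclei kept, Leiden clusters, nuclei of at least 2000 UMIs, TMM scaling, each library left out, the median over libraries and subtraction of the excitatory neuron-like level. Python 3.11.15, numpy 2.4.6, scipy 1.17.1, pandas 2.3.3, scanpy 1.11.5, leidenalg 0.10.2 and edgeR 4.0.16 (scaling factors only) were used.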

Additional observations from a re-analysis of the deposited data

How the results depend on the processing

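No paired analysis was possible because the barcodes carry no mouse number by which genotypes could be paired. The 2-fold calls were made within each library, while the log2 ratios and their intervals were over UMIs summed over libraries. For Ermn from newly formed to mature nuclei the summed ratio was 2.79 and the median over libraries 3.48. For Mobp from committed to newly formed nuclei these were 3.18 and 3.67. The count of genes called higher in mature nuclei than in OPCs was 8 and ranged from 8 to 9 over the alternatives, and that from committed to newly formed nuclei was 4 and ranged from 4 to 5. From newly formed to mature nuclei the count of 4 became 8 with Leiden clusters and was 4 or 5 otherwise. From OPC to committed nuclei the count of 0 became 2 by the median over libraries (Mbp and Cldn11) and ranged from 0 to 1 when each library was left out, with 1 (Cldn11) without library 1. For OPCs above excitatory neuron-like nuclei the count of 2 became 0 with the stricter gate, 0 with mixed nuclei kept, 1 with nuclei of at least 2000 UMIs, 0 with TMM scaling and 8 by the median over libraries, and ranged from 2 to 3 when each library was left out. The cause was not tested. TMM scaling moved every log2 ratio of OPCs to excitatory neuron-like nuclei by -0.37, of endothelial-like to excitatory neuron-like nuclei by -0.55, of fibroblast-like to excitatory neuron-like nuclei by -0.62 and of newly formed to committed nuclei by 0.19.

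Of 761 log2 ratios recomputed, 753 kept their direction and 728 moved by no more than 1 SD over libraries. The 8 that took the other direction were ratios of committed nuclei to OPCs for Mobp, Mal, Opalin and Ermn. Ratios with 1 library left out share most of their data with the main values, so little movement could be seen there. With Leiden clusters 8 ratios moved by more than 1 SD and 12 did not. With TMM scaling 11 did and 55 did not. Mal in endothelial-like over astrocyte-like nuclei ran from 1.01 to 1.32. The stricter gate gave no value for the committed stage, and Leiden clusters gave none for committed and excitatory neuron-like nuclei. Without the filter on low counts the share of all genes called higher was 2.3% from OPC to mature nuclei. For the single steps it was 0.439% from OPC to committed, 0.4% from committed to newly formed and 0.759% from newly formed to mature nuclei. For OPCs over excitatory neuron-like nuclei it was 4.46%. For Mal, Opalin and Ermn the log2 ratios of the 239 committed nuclei to OPCs had wide intervals that included 0. They were -1.18 to 0.03 for Mal, -0.50 to 1.41 for Opalin and -1.12 to 1.07 for Ermn. Differences within these limits could not be told from 0.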
